A study of Homo sapiens with 24 samples.

Results

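The core and output genes of the circadian clock were followed by RNA-seq in T/C-28a2 cells, an immortalised human chondrocyte line. They are BMAL1, CLOCK, NPAS2, PER1, PER2, CRY1, NR1D1, NR1D2, DBP and TEF, chosen by symbol as members of this pathway, and all 10 were found among the 62703 gene identifiers counted in each library. All 24 libraries were used, 4 in each of 6 groups. WT Ctr cells were kept in isotonic medium. WT Sor cells had 100 mM sorbitol in the medium for 7 days to raise its osmolarity. WNK2- Ctr and WNK2- Sor cells, labelled WNK2 knockout, carry a CRISPR/Cas9 deletion of exon 2 of WNK2, a kinase that senses osmotic stress, and received the same isotonic or sorbitol medium. WNK2 trans Ctr and WNK2 trans Sor are WT cells transfected with a WNK2 expression plasmid for 48 hours before the same 7 days. The WNK2- cells derive from a single edited cell, so the deletion and the clone cannot be told apart, and the WT groups received no empty plasmid, so WNK2 and the transfection itself cannot be told apart either. Cultures were sampled at the end of treatment, and neither a time series nor the hour of harvest is given in the sources used here, so the values are levels at one moment of an oscillating system.

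The clock is a transcriptional feedback loop. BMAL1 pairs with CLOCK or its paralogue NPAS2 and activates genes through E-box elements, among them the PER and CRY genes, whose proteins return to the nucleus and inhibit the activators. A second loop is closed by the nuclear receptors NR1D1 and NR1D2 (REV-ERB alpha and beta), which are E-box targets and repress BMAL1 and NPAS2 through ROR/REV-ERB elements, and an output arm is formed by DBP and TEF, PAR bZIP transcription factors that bind D-box elements. In cartilage the loop runs in chondrocytes and is known to time matrix turnover.

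Some facts of the libraries bear on every value. Total counts ran from 14153002 to 25664619 (median 17506505.5), with 18578564 to 25664619 in WNK2- libraries, 14153002 to 17588934 in untransfected WT libraries and 14908600 to 23239491 in those labelled as transfected. The reads on WNK2 did not follow the labels throughout: the libraries labelled WNK2 trans Ctr held 163 to 290, fewer than the 1217 to 2568 of WT Ctr, whereas those labelled WNK2 trans Sor held 2237 to 3739. WT Sor libraries, whose labels name sorbitol but no deletion or transfection of WNK2, held only 266 to 314 reads (15.8 to 18.0 CPM, counts scaled to library size, against 75.04 to 181.4 in WT Ctr and 17.3 to 23.5 in the WNK2- libraries). The study's supplement reports that neither sorbitol nor WNK2 transfection changed WNK2 significantly. In the counts used here every WT Sor and WNK2 trans Ctr library lay below every WT Ctr library, and this conflict was not resolved. WNK2- Ctr libraries held 440 to 501 and WNK2- Sor libraries 322 to 503 WNK2 reads. Every comparison with WT Sor or WNK2 trans Ctr rests on these libraries, and reads on the whole gene do not separate transcripts with and without the deleted exon. Of 13 chondrocyte markers, the defining factor SOX9 was listed at 0 in all 24 libraries. COL2A1 ranged from 4.74 to 194.5 normalized counts, ACAN from 3.86 to 222.6 and HAPLN1 from 235 to 2775. Markers of dedifferentiated stromal cells did not stand at one level. COL1A1 ranged from 15364 to 98970 and COL3A1 from 999 to 19966, whereas COL1A2 had at most 18.0, DCN at most 37.9 and THY1 0 in all 24 libraries. The label of a chondrocyte line was thus not borne out by SOX9, COL2A1 and ACAN were low or variable, and HAPLN1 was present in every library. Replicates of WT Ctr, WNK2 trans Ctr and WNK2 trans Sor differed from each other most: the chi-square of 2 libraries' counts, per degree of freedom, reached 62.29 between WNK2 trans Sor replicates 1 and 2, against at most 4.812 between WT Sor replicates.

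The promoters are shown first, since the loops act through them. RefSeq windows of the GRCh38.p14 assembly, from 250 bases before to 50 bases after each annotated start, were searched on both strands for the E-box CACGTG, the D-box TTANGTAA, the ROR/REV-ERB element TNGGTCA and the cAMP response element TGACGTCA. The 10 genes have 14 such windows. An E-box was found at 3 genes (PER1, NR1D2 and TEF), a D-box at 2 (PER2 and NR1D2) and a ROR/REV-ERB element at 3 (BMAL1, CLOCK and NR1D2), and no window held the cAMP response element. Over all 35116 windows the shares with a match were 7.26% for the E-box, 2.18% for the D-box, 9.45% for the ROR/REV-ERB element and 1.85% for the cAMP response element. The ROR/REV-ERB letters lie upstream of the start of BMAL1 and CLOCK, and again just inside the transcribed part of BMAL1; each is shown 5′ to 3′ on the strand of the gene, with the matching letters in capitals, a match on the other strand appearing as its reverse complement (chr11:13277540-13277574 and chr11:13277809-13277837, plus strand; chr4:55546118-55546174, minus strand).
BMAL1 upstream: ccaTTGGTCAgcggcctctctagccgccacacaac
BMAL1 after the start: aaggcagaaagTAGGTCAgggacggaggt
CLOCK: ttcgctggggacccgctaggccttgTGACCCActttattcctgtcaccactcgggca

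The E-box matches of PER1 and TEF begin 173 bases before the start of PER1 and 195 and 193 bases before the 2 annotated starts of TEF (chr17:8152547-8152602, minus strand; chr22:41367235-41367290 and chr22:41381724-41381779, plus strand). PER2 carried its D-box across the start itself (chr2:238288595-238288624, minus strand). NR1D2 held a D-box, an E-box, a ROR/REV-ERB element and another E-box within 145 bases upstream of 1 of its 2 starts (chr3:23945902-23946046, plus strand), the only one of the 14 windows with more than 1 kind of match.
PER1: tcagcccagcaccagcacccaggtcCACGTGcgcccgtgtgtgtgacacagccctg
TEF, first start: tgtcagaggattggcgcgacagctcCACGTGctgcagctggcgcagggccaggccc
TEF, second start: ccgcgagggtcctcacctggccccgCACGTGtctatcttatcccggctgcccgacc
PER2: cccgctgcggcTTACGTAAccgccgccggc
NR1D2: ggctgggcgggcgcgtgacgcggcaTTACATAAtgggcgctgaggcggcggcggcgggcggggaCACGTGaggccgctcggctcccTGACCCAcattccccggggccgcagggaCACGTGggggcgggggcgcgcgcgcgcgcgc

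NPAS2 and DBP, the genes with the widest range of levels among the 10, had none of the 4 motifs in their windows, which says only that these letters are not in these windows. The first 150 bases of each, from 250 bases before the start, are shown for comparison (chr2:100819889-100820038, plus strand; chr19:48637480-48637629, minus strand).
NPAS2: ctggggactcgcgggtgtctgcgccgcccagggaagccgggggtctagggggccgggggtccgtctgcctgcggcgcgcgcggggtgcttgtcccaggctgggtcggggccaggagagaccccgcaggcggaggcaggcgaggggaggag
DBP: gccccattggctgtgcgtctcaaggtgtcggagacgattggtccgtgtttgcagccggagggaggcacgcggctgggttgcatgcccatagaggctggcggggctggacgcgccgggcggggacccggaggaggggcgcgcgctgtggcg

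All 10 genes were detected in every library and passed the filter on low counts, with raw counts from 18 (PER2) to 3718 (NR1D2). Each value below is a normalized count, the raw count divided by the effective size of its library and scaled to the mean effective size of 18363858. Compared per kilobase of exon in WT Ctr, NR1D2 was the most abundant of the 10 at 450.4 normalized counts per kb, followed by CRY1 at 176, NR1D1 at 131, TEF at 82.6 and PER1 at 62.8. BMAL1 had 41.0, DBP 24.6, NPAS2 16.6, CLOCK 15.7 and PER2 8.66 normalized counts per kb. Across the 6 groups the means of NPAS2 spanned 3.01 log2 units, those of DBP 1.88, PER1 1.23, TEF 1.20 and CLOCK 1.19, and those of the other 5 genes 0.57 to 0.79. The activator NPAS2 and the output factor DBP thus varied most, and CRY1 least.

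**Figure D1:**
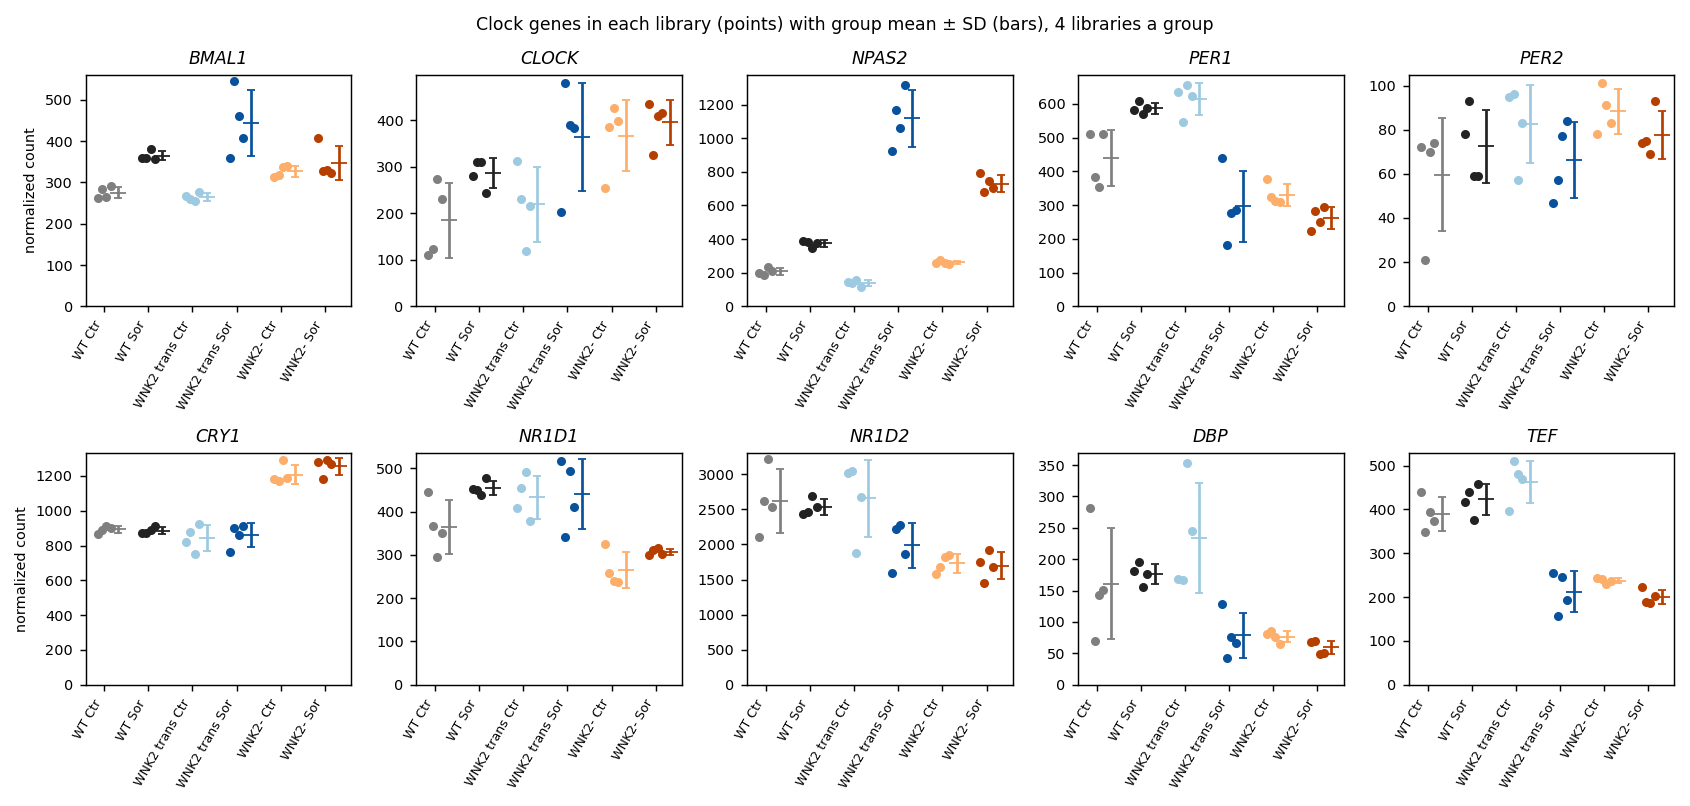
Normalized counts (y axis, from 0) of the 10 clock genes in each of 24 libraries (points), with the mean and SD of the 4 libraries of each group (bar and whiskers). The NPAS2 libraries of the 6 groups do not overlap, WNK2 trans Sor being highest (922 to 1319) and WNK2 trans Ctr lowest (113 to 155), and CRY1 separates the WNK2- libraries (1174 to 1291) from the other 16 (751 to 925).

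Changes are given as log2 fold changes with their standard errors (SE) from edgeR's quasi-likelihood test, and a gene is called where its Benjamini-Hochberg adjusted p over 16600 tested genes is under 0.05. Sorbitol in WT cells raised 2 of the 10 genes, NPAS2 and BMAL1, and lowered none, where 24.1% of all tested genes were called. Between genotypes 7 of 10 were called in isotonic medium (3 higher and 4 lower in WNK2- Ctr, 42.1% of all genes called) and again 7 of 10 in sorbitol medium (2 up and 5 down in WNK2- Sor, 46.3% of all genes called). Sorbitol in WNK2- cells raised NPAS2 alone of the 10 (14.9% of all genes called). In the libraries labelled WNK2 trans Ctr, 1 gene, NPAS2, was lower than in WT Ctr (12.5% of all genes called). In those labelled WNK2 trans Sor, 2 genes were higher and 3 lower than in WT Sor (31.7% of all genes called), and 3 were higher and 4 lower than in WNK2 trans Ctr (48% of all genes called). The share of clock genes called was thus above that of all genes in 4 comparisons, the 2 between genotypes and the 2 with WNK2 trans Sor, and below it in the other 3, and with 10 genes 1 call moves the share by 10 percentage points. The median log2 fold change of all tested genes lay between 0.0020 and 0.035 in these 7 comparisons. Comparisons with a group in common share its libraries and are not independent.

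**Figure D2:**
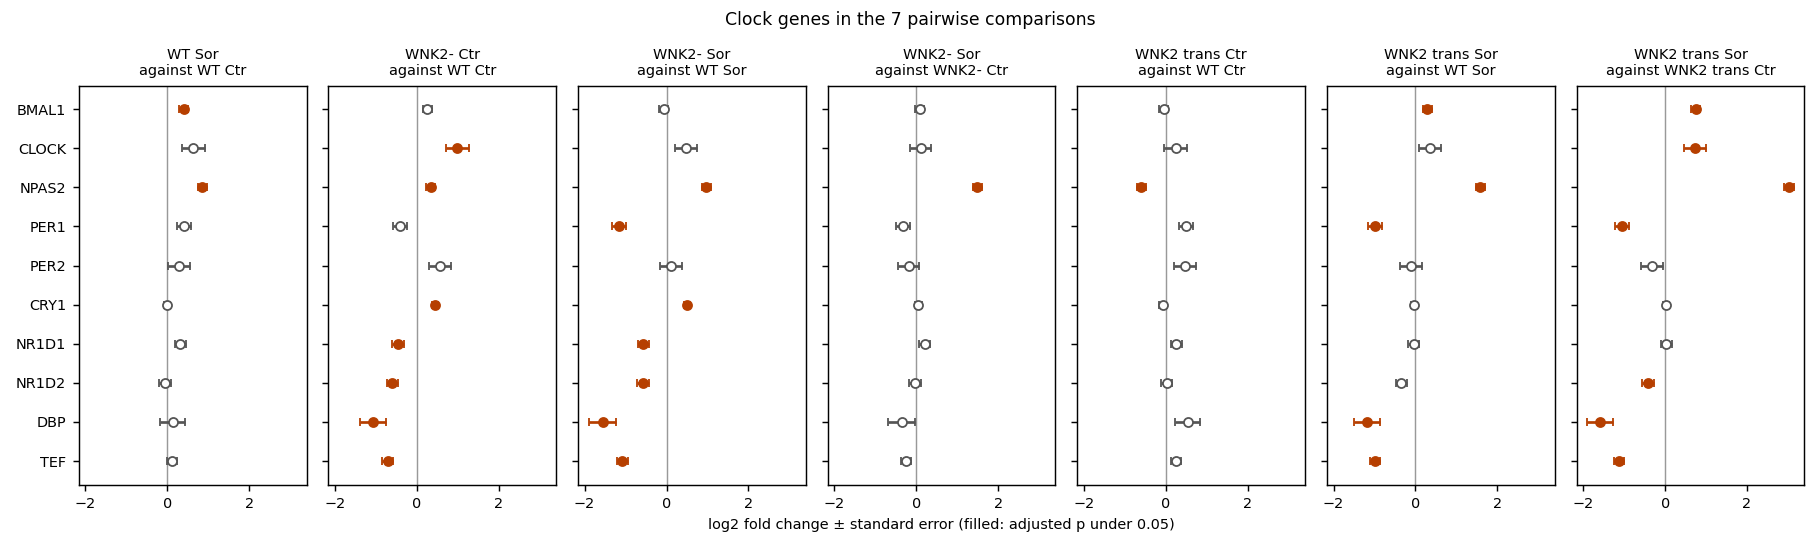
Log2 fold changes (x axis) of the 10 clock genes in the 7 pairwise comparisons, with standard errors as whiskers and filled points where the edgeR adjusted p is under 0.05. NPAS2 is called in all 7 panels, PER2 in none, and PER1, DBP and TEF are called lower in the 3 panels WNK2- Sor against WT Sor, WNK2 trans Sor against WT Sor and WNK2 trans Sor against WNK2 trans Ctr.

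Among the activators, NPAS2 (ENSG00000170485, chromosome 2, 100820152 to 100996829, plus strand, protein coding), which can stand in for CLOCK as the partner of BMAL1, was called in every pairwise comparison. WT Ctr libraries had 201, 188, 231 and 207 normalized counts and WT Sor libraries 391, 380, 347 and 379. WNK2- Ctr libraries had 259, 276, 259 and 249, and WNK2- Sor libraries 793, 679, 748 and 703. Those labelled WNK2 trans Ctr had 143, 137, 155 and 113, and those labelled WNK2 trans Sor 922, 1169, 1061 and 1319. No library of one group overlapped another group, so that the order WNK2 trans Sor, WNK2- Sor, WT Sor, WNK2- Ctr, WT Ctr, WNK2 trans Ctr held for all 24 libraries, every sorbitol group standing above every isotonic one. The response to sorbitol was 0.85 (SE 0.11, adjusted p = 6.04e-06) in WT cells and 1.49 (SE 0.11, adjusted p = 3.96e-10) in WNK2- cells. It was 3.03 (SE 0.12, adjusted p = 2.4e-16) between the 2 groups labelled as transfected, an 8.16-fold difference. WNK2 trans Sor lay above WT Sor by 1.58 (SE 0.11, adjusted p = 4.43e-11) and WNK2- Sor above WT Sor by 0.97 (SE 0.11, adjusted p = 5.15e-08). In isotonic medium WNK2 trans Ctr lay 0.60 below WT Ctr (log2 fold change -0.60, SE 0.12, adjusted p = 0.000872). The smallest of these changes was WNK2- Ctr over WT Ctr, at 0.33 (SE 0.11, adjusted p = 0.0195), and this call ended without WT Ctr replicate 2 (0.28, adjusted p = 0.0586), without WNK2- Ctr replicate 2 (0.31, adjusted p = 0.0508), with only these groups in the fit (0.33, adjusted p = 0.0505), after thinning to the smallest library (0.27, adjusted p = 0.0867) and with an offset for GC content and length (0.09, adjusted p = 0.512). The other 6 calls held in all 33 alternative settings. An antisense gene, AC016738.1, covers 6.0% of the exon bases of NPAS2 but held 25 reads in all 24 libraries together.

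BMAL1 (ENSG00000133794, chromosome 11, 13276652 to 13387266, plus strand), the obligate partner of CLOCK and NPAS2, moved in the same direction as NPAS2 with sorbitol in WT and transfected cells, by a smaller amount. WT Ctr libraries had 263, 284, 265 and 291 normalized counts and WT Sor libraries 360, 360, 381 and 358, without overlap. The change was 0.41 (SE 0.11, adjusted p = 0.00927). Libraries labelled WNK2 trans Ctr had 267, 261, 255 and 277, and those labelled WNK2 trans Sor 360, 547, 462 and 409, again without overlap, a change of 0.75 (SE 0.11, adjusted p = 4.58e-06). In WNK2- cells the isotonic libraries (314, 319, 338 and 339) and the sorbitol libraries (409, 329, 330 and 322) overlapped, and the change was 0.09 (SE 0.11, adjusted p = 0.666). The difference between the responses of WNK2- and WT cells, -0.32, was not called (SE 0.15, adjusted p = 0.213). The call for WNK2 trans Sor over WT Sor (0.29, SE 0.11, adjusted p = 0.0468) was held by few settings, 10 of 33, and was lost without any of the 4 WT Sor libraries, without WNK2 trans Sor replicate 2 (0.16, adjusted p = 0.255) or replicate 3 (0.26, adjusted p = 0.103). Group means ordered as WNK2 trans Sor (444.5 ± 80.04, SD, n = 4), WT Sor (365 ± 11.1), WNK2- Sor (348 ± 41.2), WNK2- Ctr (327 ± 12.9), WT Ctr (276 ± 13.9) and WNK2 trans Ctr (265 ± 9.36). Of these neighbours only WNK2- Ctr and WT Ctr did not overlap, and their difference of 0.25 did not pass the test (SE 0.11, adjusted p = 0.0721).

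CLOCK (ENSG00000134852, chromosome 4, 55427903 to 55547138, minus strand), the histone acetyltransferase partner of BMAL1, was the most variable of the activators between libraries of one group. WT Ctr libraries had 110, 124, 273 and 231 normalized counts and WNK2- Ctr libraries 255, 385, 427 and 398. WNK2- Ctr was higher by 0.99 (SE 0.27, adjusted p = 0.00508), although its lowest library lay under the highest of WT Ctr. The libraries labelled WNK2 trans Ctr had 313, 230, 118 and 215, and those labelled WNK2 trans Sor 202, 479, 389 and 383. These 2 groups overlapped, and the difference of 0.73 (SE 0.27, adjusted p = 0.0282) was lost without WNK2 trans Ctr replicate 3 (0.54, adjusted p = 0.105) or replicate 4 (0.71, adjusted p = 0.0622). It was also lost without WNK2 trans Sor replicate 2 (0.57, adjusted p = 0.115), replicate 3 (0.69, adjusted p = 0.064) or replicate 4 (0.70, adjusted p = 0.0623). The same held with only these groups in the fit (0.73, adjusted p = 0.0717) and after thinning to the smallest library (0.65, adjusted p = 0.0555). In WT Sor CLOCK had 280, 311, 311 and 244, and the sorbitol change in WT cells of 0.63 missed the threshold (SE 0.28, adjusted p = 0.0974), but passed without WT Ctr replicate 3 (0.91, adjusted p = 0.0279). WNK2- Sor libraries had 434, 324, 409 and 415, the highest group mean (395 ± 48.6, SD, n = 4), and each of the 6 groups overlapped its neighbour in the order of means. WNK2- Sor lay above WT Sor in every library, by 0.47 (SE 0.27, adjusted p = 0.16), which passed the threshold with only these groups in the fit (0.46, adjusted p = 0.00129).

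Of the repressors of the main loop, PER1 (ENSG00000179094, chromosome 17, 8140472 to 8156506, minus strand), a PERIOD gene that is also induced by glucocorticoids and other signals, was lower in 3 comparisons. WT Ctr libraries had 510, 384, 354 and 512 normalized counts and WT Sor libraries 583, 609, 569 and 589. WNK2- Ctr libraries had 378, 323, 313 and 309, and WNK2- Sor libraries 224, 284, 249 and 295. Libraries labelled WNK2 trans Ctr had 635, 548, 657 and 624, and those labelled WNK2 trans Sor 439, 183, 277 and 287. The WT Sor and WNK2 trans Ctr libraries were all higher than any library of WT Ctr, yet these differences of 0.42 (SE 0.17, adjusted p = 0.0733) and 0.49 (SE 0.17, adjusted p = 0.0594) missed the threshold. The first passed without WT Ctr replicate 1 (0.50, adjusted p = 0.0459) or 4 (0.51, adjusted p = 0.0467), and the second likewise (0.56, adjusted p = 0.0405, or 0.58, adjusted p = 0.0412). Leaving out WNK2 trans Sor replicate 1 or 2, the libraries in which PER1 was farthest from its group, also brought both under the threshold (adjusted p from 0.0141 to 0.0274). With offsets for GC content and length both were much smaller, 0.09 (adjusted p = 0.524) and 0.20 (adjusted p = 0.172). Under sorbitol every WNK2- library lay below every WT library, by a log2 fold change of -1.16 (SE 0.17, adjusted p = 4.35e-06). WNK2 trans Sor lay below WT Sor by -0.99 (SE 0.17, adjusted p = 8.79e-05) and below WNK2 trans Ctr by -1.06 (SE 0.17, adjusted p = 1.73e-05), with no overlap in either case, replicate 1 being the highest of its group. The isotonic difference between genotypes was -0.41 (SE 0.17, adjusted p = 0.0554), with WT Ctr and WNK2- Ctr libraries overlapping, and it passed without WT Ctr replicate 2 (-0.47, adjusted p = 0.045) or 3 (-0.50, adjusted p = 0.0335) and without WNK2 trans Sor replicate 1 or 2 (-0.41, adjusted p = 0.017 and 0.0226), and with the GC and length offsets (-0.52, adjusted p = 8.94e-05).

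PER2 (ENSG00000132326, chromosome 2, 238244038 to 238290102, minus strand), the other PERIOD gene of the set, was called in none of the 9 tests, and in none of their alternative settings, DESeq2 included. It had the fewest reads of the 10 genes, with 72, 21, 70 and 74 normalized counts in WT Ctr and 78, 101, 91 and 83 in WNK2- Ctr. These 2 groups did not overlap, and their difference of 0.57 was the only one of the 9 with an unadjusted p under 0.05 (SE 0.27, edgeR adjusted p = 0.0876). Over the 6 groups the means ran from 59.6 ± 25.6 (SD, n = 4) in WT Ctr to 88.4 ± 10.2 in WNK2- Ctr, and each group overlapped its neighbour. The standard errors of PER2 were 0.26 to 0.27 in the pairwise comparisons, against 0.11 for BMAL1, 0.26 to 0.28 for CLOCK and 0.30 to 0.33 for DBP.

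CRY1 (ENSG00000008405, chromosome 12, 106991364 to 107093829, minus strand), the cryptochrome that holds BMAL1 and CLOCK inactive, differed by genotype. WT Ctr libraries had 867, 887, 914 and 901 normalized counts and WT Sor libraries 871, 871, 887 and 913. WNK2- Ctr libraries had 1182, 1174, 1290 and 1186, and WNK2- Sor libraries 1282, 1181, 1291 and 1267. All 8 WNK2- libraries lay above all 8 untransfected WT libraries, and the genotype differences were 0.44 (SE 0.077, adjusted p = 6.3e-05) in isotonic medium and 0.50 (SE 0.077, adjusted p = 7.34e-06) under sorbitol. The 4 libraries labelled WNK2 trans Ctr (823, 876, 751 and 925) and the 4 labelled WNK2 trans Sor (762, 900, 863 and 914) were in the range around the WT libraries. The sorbitol changes were -0.01 (SE 0.078) in WT, 0.05 (SE 0.077) in WNK2- and 0.03 (SE 0.078) in transfected cells, with adjusted p = 0.936, 0.708 and 0.79. The direction of all 3 turned with the correction for GC content and length, to 0.02 in WT (adjusted p = 0.88), -0.03 in WNK2- (adjusted p = 0.788) and -0.17 in transfected cells, where it passed the threshold (adjusted p = 0.0478).

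The 2 REV-ERB receptors of the second loop were lower in WNK2- cells. NR1D2 (ENSG00000174738, chromosome 3, 23945260 to 23980618, plus strand), the more abundant of them, had 2110, 2616, 3220 and 2538 normalized counts in WT Ctr and 1573, 1672, 1820 and 1851 in WNK2- Ctr. WT Sor libraries had 2438, 2468, 2690 and 2529, and WNK2- Sor libraries 1746, 1450, 1925 and 1672. The WNK2- libraries were all below the WT libraries in both media, by -0.60 (SE 0.14, adjusted p = 0.00114) in isotonic medium and -0.58 (SE 0.14, adjusted p = 0.00136) under sorbitol. Libraries labelled WNK2 trans Ctr had 3027, 3046, 1880 and 2681, and those labelled WNK2 trans Sor 1587, 2217, 2284 and 1867. WNK2 trans Sor was lower than WNK2 trans Ctr by -0.42 (SE 0.14, adjusted p = 0.0155), with overlap through WNK2 trans Ctr replicate 3. The call was lost without WNK2 trans Ctr replicate 1 (-0.36, adjusted p = 0.0514) or replicate 2 (-0.35, adjusted p = 0.0595), and with only these groups in the fit (-0.42, adjusted p = 0.0724). Below WT Sor, whose 4 libraries were all higher, WNK2 trans Sor lay at -0.35 (SE 0.14, adjusted p = 0.0582), and this passed in 7 of 33 settings, among them without WNK2 trans Sor replicate 3 (-0.43, adjusted p = 0.038), without WT Ctr replicate 3 (-0.36, adjusted p = 0.039) and with a correction for GC content and length (-0.50, adjusted p = 9.44e-06). NR1D2 showed changes of -0.05 with sorbitol in WT cells and of -0.03 in WNK2- cells, neither past the threshold.

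NR1D1 (ENSG00000126368, chromosome 17, 40092787 to 40100725, minus strand) had 444, 367, 294 and 350 normalized counts in WT Ctr and 326, 257, 239 and 236 in WNK2- Ctr. In WT Sor NR1D1 had 452, 449, 439 and 477, and in WNK2- Sor 299, 310, 315 and 302. The sorbitol change in WT cells, 0.32 (SE 0.13, adjusted p = 0.0832), passed without WT Ctr replicate 1 (0.44, adjusted p = 0.0226) and without WNK2 trans Sor replicate 2 (0.33, adjusted p = 0.0476). The genotype difference was -0.46 in isotonic medium, where the groups overlapped (SE 0.14, adjusted p = 0.00789), and -0.57 under sorbitol, where they did not (SE 0.13, adjusted p = 0.00108). Libraries labelled WNK2 trans Ctr (409, 454, 491 and 377) and WNK2 trans Sor (516, 341, 494 and 411) overlapped each other and WT Sor, and no change involving them passed the test. With the correction for GC content and length NR1D1 was higher in WNK2 trans Sor than in WNK2 trans Ctr (0.28, adjusted p = 0.0295), against 0.02 without it (adjusted p = 0.9). Of its exon bases 9.5% are shared with THRA on the opposite strand, and since no strand setting of the counting is given in the sources used here, reads of the 2 genes in that stretch cannot be told apart.

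Of the output factors, DBP (ENSG00000105516, chromosome 19, 48630030 to 48637438, minus strand), a D-box activator with a steep daily rhythm in many tissues, had the second widest range. In WT Ctr DBP had 282, 69, 143 and 151 normalized counts and WT Sor libraries 181, 195, 156 and 176. WNK2- Ctr libraries had 81, 86, 76 and 64, and WNK2- Sor libraries 68, 69, 49 and 51. Libraries labelled WNK2 trans Ctr had 169, 167, 354 and 245, and those labelled WNK2 trans Sor 129, 42, 76 and 66. All 4 WNK2- Sor and all 4 WNK2 trans Sor libraries lay below all WT Sor libraries, by -1.56 (SE 0.32, adjusted p = 0.000272) and -1.19 (SE 0.32, adjusted p = 0.00606). WNK2 trans Sor lay below WNK2 trans Ctr by -1.59 (SE 0.32, adjusted p = 0.000221), also without overlap. In isotonic medium WNK2- Ctr was lower than WT Ctr by -1.07 (SE 0.32, adjusted p = 0.00825), but the WT Ctr libraries spread around the WNK2- ones, and without WT Ctr replicate 1 the difference was -0.66 (adjusted p = 0.0782). Without that same library WNK2 trans Ctr was higher than WT Ctr (0.94, adjusted p = 0.0295, against 0.53, adjusted p = 0.271, with it). DBP shares 10.1% of its exon bases with SPHK2 on the opposite strand, with the same limit as for NR1D1.

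TEF (ENSG00000167074, chromosome 22, 41367333 to 41399326, plus strand), the PAR bZIP relative of DBP, showed the same directions with less spread. In WT Ctr TEF had 440, 349, 395 and 373 normalized counts and WNK2- Ctr libraries 243, 241, 230 and 236. WT Sor libraries had 416, 440, 377 and 458, and WNK2- Sor libraries 223, 188, 187 and 202. The genotypes were apart in both media, by -0.71 (SE 0.13, adjusted p = 6.35e-05) and -1.08 (SE 0.13, adjusted p = 1.29e-07). Libraries labelled WNK2 trans Ctr had 397, 510, 480 and 469, and those labelled WNK2 trans Sor 255, 157, 245 and 194. The latter lay below WNK2 trans Ctr by -1.13 (SE 0.13, adjusted p = 7.84e-08) and below WT Sor by -0.99 (SE 0.13, adjusted p = 1.53e-06), and every library of the lower group was under every library of the higher one. All 4 of these calls held in all 33 alternative settings. In order of means the 6 groups fell into 2 blocks that did not overlap: WNK2 trans Ctr (464 ± 47.9, SD, n = 4), WT Sor (423 ± 34.9) and WT Ctr (389 ± 38.6) above, WNK2- Ctr (237 ± 5.57), WNK2 trans Sor (213 ± 46.1) and WNK2- Sor (200.1 ± 16.4) below.

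Whether the response to sorbitol depended on the genotype or on the transfection was tested as an interaction, the difference between 2 sorbitol responses on the log2 scale. With genotype 1 of the 10 genes was called, where 8.65% of all tested genes were: the response of NPAS2 was larger in WNK2- than in WT cells by 0.63 (SE 0.16, adjusted p = 0.0112). For PER1 the responses were 0.42 in WT and -0.33 in WNK2- cells, a difference of -0.75 that missed the threshold (SE 0.24, adjusted p = 0.0524) and passed it with DESeq2 (-0.74, adjusted p = 0.0279), and on leaving out WT Ctr replicate 1 (-0.84), WT Ctr replicate 4 (-0.85) or WNK2 trans Sor replicate 1 or 2 (-0.77), at adjusted p from 0.0115 to 0.0334. With offsets for GC content and length it was -0.31 (adjusted p = 0.14). With transfection 4 of the 10 were called, 1 higher and 3 lower, where 35.5% of all tested genes were. NPAS2 responded more strongly in the transfected libraries by 2.18 (SE 0.16, adjusted p = 1.16e-10). For PER1, DBP and TEF the interaction was negative. Their responses were 0.42, 0.13 and 0.12 in WT cells, none of them called, and -1.06, -1.59 and -1.13 in transfected cells, all called. With GC and length offsets the WT responses of these 3 genes were 0.09, -0.02 and -0.02. Their interactions were -1.48 for PER1 (SE 0.24, adjusted p = 3.28e-05), -1.72 for DBP (SE 0.44, adjusted p = 0.0036) and -1.25 for TEF (SE 0.18, adjusted p = 5.3e-06). All of these values rest in part on WT Sor, and those with transfection also on WNK2 trans Ctr, the groups with few WNK2 reads. The interaction calls of NPAS2, PER1, DBP and TEF with transfection, and that of NPAS2 with genotype, held in all 33 settings, but with the GC and length offsets the interaction of PER1 with transfection was -0.70 in place of -1.48, that of DBP -1.39 in place of -1.72 and that of TEF -0.94 in place of -1.25.

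**Figure D3:**
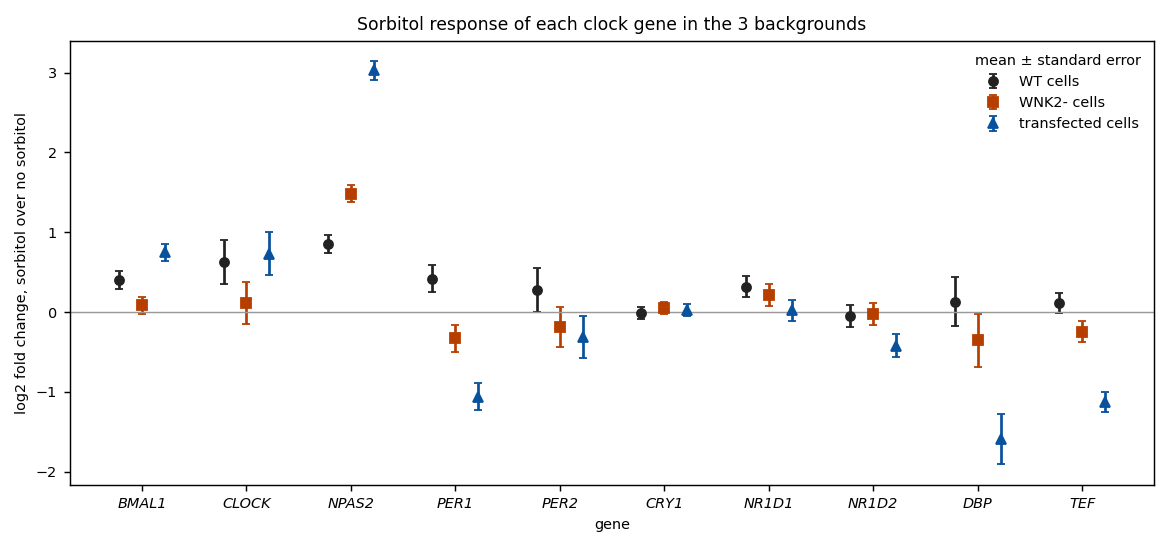
Log2 fold change of each clock gene with sorbitol (y axis, sorbitol over isotonic medium) in WT cells (circles), WNK2- cells (squares) and cells labelled as transfected (triangles), with standard errors. NPAS2 rises in the 3 backgrounds by 0.85, 1.49 and 3.03, and PER1, DBP and TEF are called lower with sorbitol in the transfected cells, at -1.06, -1.59 and -1.13.

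GC content moved with some of these values. Among tested genes PER1 was at percentile 92.2 of exonic GC content, NR1D1 at 83.9, DBP at 79.1 and TEF at 75.5, whereas CLOCK, CRY1 and NR1D2 were at 5.3, 5.5 and 9.3. In each library the median deviation of the 20% of genes with the highest GC content from their means over all libraries was compared with that of the 20% with the lowest. The difference ran from -0.915 to 0.335 in WNK2 trans Sor, where replicate 1 was the highest and replicate 2 the lowest, from -0.571 to 0.519 in WT Ctr, and only from 0.146 to 0.292 in WT Sor. With offsets for GC content and length in the fit, the fall of PER1 from WNK2 trans Ctr to WNK2 trans Sor was -0.62 in place of -1.06, that from WT Sor to WNK2 trans Sor -0.51 in place of -0.99, and that from WT Sor to WNK2- Sor -0.84 in place of -1.16. The same 3 differences were -1.41, -0.96 and -1.39 for DBP and -0.96, -0.79 and -0.92 for TEF. All 9 stayed past the threshold, as did the NPAS2 rises with sorbitol, at 0.65 in WT, 1.42 in WNK2- and 2.78 in transfected cells.

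**Figure D4:**
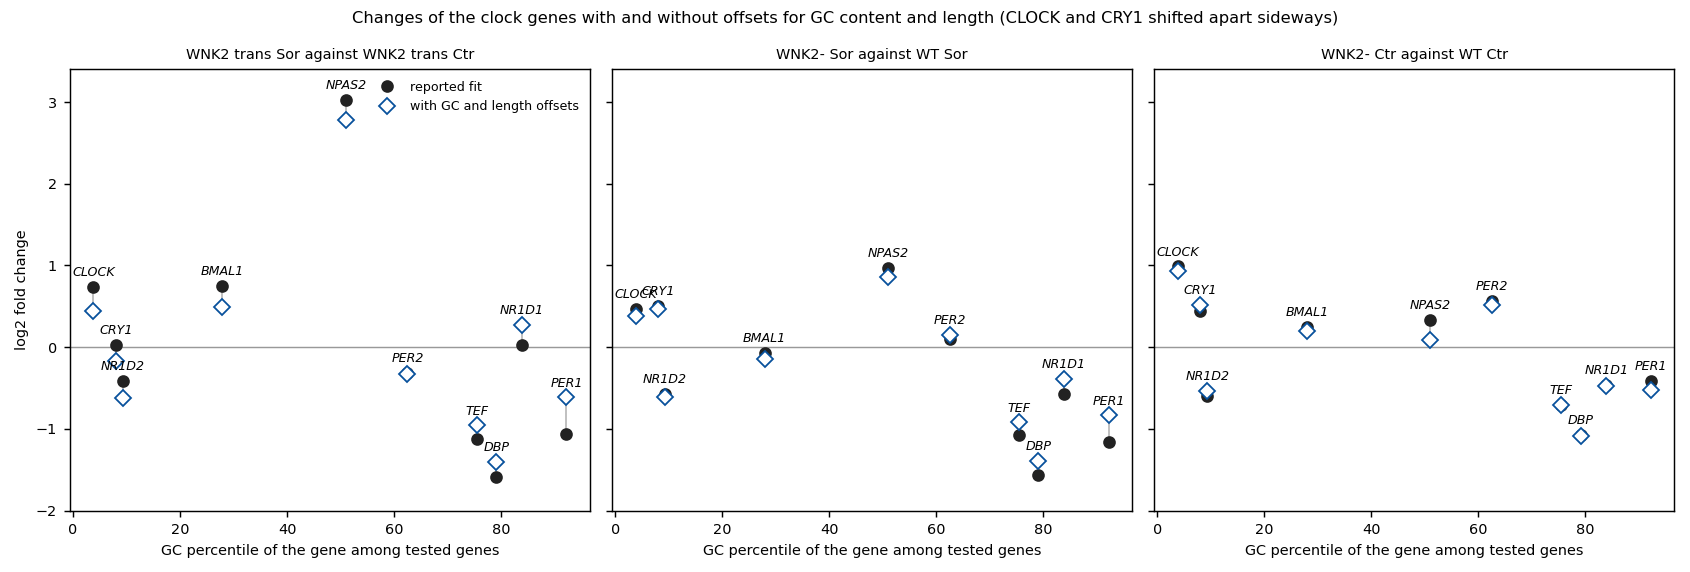
Log2 fold changes (y axis) of the 10 clock genes in 3 comparisons against the percentile of each gene's exonic GC content among tested genes (x axis), as reported (circles) and with offsets for GC content and length (diamonds). PER1, at percentile 92.2, shifts most in the left panel, from -1.06 to -0.62, while the falls of DBP and TEF and the rise of NPAS2 keep most of their size.

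Since the WNK2- cells are clonal, the tested genes within 1 Mb of each clock gene were set beside it. In WNK2- Ctr against WT Ctr the 38 neighbours of NR1D1 had a median of -0.49, close to the -0.46 of NR1D1 itself, the 64 neighbours of DBP -0.47 against -1.07, and the 56 neighbours of PER1 -0.43 against -0.41. The 36 neighbours of TEF had a median of -0.17 against -0.71, the 13 of CRY1 0.09 against 0.44, and the 4 of NR1D2 0.02 against -0.60. Under sorbitol the medians were -0.61 for NR1D1, -0.68 for DBP and -0.74 for PER1, and -0.09 for TEF, 0.03 for CRY1 and 0.18 for NR1D2. The 8 neighbours of BMAL1 had medians of 0.29 in isotonic medium, where BMAL1 itself had 0.25, and 0.32 under sorbitol, where it had -0.07. Those of CLOCK (11 genes) had -0.04 and 0.21, those of NPAS2 (10 genes) -0.19 and 0.14, and those of PER2 (21 genes) 0.10 and -0.15. The regions around NR1D1, DBP and PER1 thus had lower medians in WNK2- cells, as had these genes, and the region around BMAL1 a higher one in both media. DBP and PER1 had lower neighbours also in WNK2 trans Sor against WT Sor (-0.45 and -0.40), a comparison without the clone. There the neighbours of NR1D1 had a median of -0.17 and those of BMAL1 0.25. WNK2 trans Sor against WNK2 trans Ctr, also without the clone, had medians of -0.48 for NR1D1, -0.59 for DBP, -0.39 for PER1 and 0.36 for BMAL1. The share of the regional shift in the value of each gene was not tested.

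The rest of the clock was read from a list of 25 further genes, of which 20 passed the filter, and each count is set beside the share of all tested genes called. With sorbitol in WT cells 1 was called higher and 3 lower (24.1% of all genes called), and in WNK2- cells 2 higher and 1 lower (14.9%). Between genotypes 4 were higher and 7 lower in isotonic medium (42.1%), and 4 higher and 6 lower under sorbitol (46.3%). WNK2 trans Ctr had 0 higher and 2 lower than WT Ctr (12.5%), WNK2 trans Sor 3 higher and 2 lower than WT Sor (31.7%), and 4 higher and 7 lower than WNK2 trans Ctr (48%). The interactions had 1 higher and 0 lower with genotype (8.65%) and 3 higher and 6 lower with transfection (35.5%). The median of the list was between -0.20 and 0.13 in the pairwise comparisons, where that of all tested genes was between 0.0020 and 0.035.

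Among the other E-box repressors, BHLHE41 (DEC2) fell with sorbitol in WT cells (-0.94, SE 0.19, adjusted p = 0.000913) and rose in WNK2- cells (0.67, SE 0.20, adjusted p = 0.0207). It was lower in WNK2- Ctr (-1.68, adjusted p = 1.87e-07) and WNK2 trans Ctr (-1.09, adjusted p = 0.00029) than in WT Ctr, and higher in WNK2 trans Sor than in WT Sor (0.87, adjusted p = 0.00107). Its relative BHLHE40 (DEC1) was lower in WNK2- Sor than in WT Sor (-1.19, SE 0.094, adjusted p = 1.15e-10), with 1289 to 1347 against 2885 to 3061 normalized counts, and so was PER3 (-0.53, SE 0.18, adjusted p = 0.0174). In isotonic medium BHLHE40 was also lower, with 1417 to 1533 in WNK2- Ctr against 2300 to 2804 in WT Ctr. PER3 overlapped there, at 187 to 262 against 162 to 265. RORA, the activator that competes with the REV-ERBs, was higher in WNK2 trans Sor than in WT Sor (0.80, SE 0.25, adjusted p = 0.0162) and WNK2 trans Ctr (1.23, SE 0.25, adjusted p = 0.000308), although its WNK2 trans Sor libraries spread from 237 to 598 normalized counts.

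Among modifiers and outputs, CSNK1E, a kinase of the PER proteins, was lower in WNK2 trans Sor than in WT Sor (-0.97, SE 0.34, adjusted p = 0.0316) and WNK2 trans Ctr (-1.17, SE 0.34, adjusted p = 0.00627), and its 4 WNK2 trans Sor libraries ran from 194 to 1059 normalized counts. TIMELESS, a replication and clock protein, was lower with sorbitol in WT (-0.25, SE 0.068, adjusted p = 0.00831) and WNK2- cells (-0.32, SE 0.068, adjusted p = 0.00186). NAMPT, the enzyme that salvages NAD, was higher with sorbitol in both (0.37, adjusted p = 0.00812, and 0.49, adjusted p = 0.00104) and lower in WNK2- Sor than in WT Sor (-0.65, adjusted p = 6.48e-06). Its isotonic libraries were apart as well, with 4233 to 4566 normalized counts in WNK2- Ctr against 6394 to 8397 in WT Ctr. NOCT, the Nocturnin phosphatase, was higher in WNK2- Ctr than in WT Ctr (1.07, SE 0.28, adjusted p = 0.00372), and the kinase WEE1 was lower in WNK2 trans Ctr than in WT Ctr (-0.30, SE 0.093, adjusted p = 0.0327). The deubiquitinase USP2, with at most 23 reads in any library, was lower in WNK2- Ctr than in WT Ctr (-1.5, adjusted p = 0.0131) and in WNK2 trans Sor than in WNK2 trans Ctr (-1.57, adjusted p = 0.0154).

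Lists of other programmes moved between the same groups, and their part in the values of the clock genes was not tested; the shares of all genes called are those given above for each comparison. Of 10 proliferation genes 8 were lower with sorbitol in WT cells and 7 in WNK2- cells, and none was higher in either. In the transfected cells 3 were higher and 3 lower with sorbitol, WNK2 trans Ctr itself had 8 lower than WT Ctr, and in the interaction with transfection 7 were higher and 1 lower. Of 5 tested immediate early genes 4 were lower in WNK2- than in WT cells in each medium, with summed normalized counts of 1183 to 1553 in the WNK2- libraries against 3030 to 7199 in untransfected WT libraries. Of 6 tested genes known to be induced by glucocorticoids, a list that holds PER1 itself, 4 were lower in WNK2- Ctr than in WT Ctr and 4 in WNK2- Sor than in WT Sor, where 2 were higher. In WNK2 trans Sor against WNK2 trans Ctr 2 of the 6 were higher and 3 lower. Of 8 tested chondrocyte markers 6 were lower and 2 higher in the latter comparison, and 5 lower and none higher in WNK2- Sor than in WT Sor. The 8 stromal markers summed to 17968 to 34728 normalized counts in WNK2- Sor and WNK2 trans Sor and to 49410 to 123977 in the other 4 groups. The 4 endothelial markers summed to 1820 to 1952 in WNK2 trans Sor, 457 to 757 in WNK2 trans Ctr, 1090 to 1231 in WT Sor and 446 to 834 in WT Ctr and the WNK2- groups, and 3 of the 4 were higher in WNK2 trans Sor than in WNK2 trans Ctr, CDH5 by 5.46 (SE 0.18, edgeR adjusted p = 1.81e-17). The 4 epithelial markers summed to 11165 to 22769 normalized counts, mostly from KRT8 (6881 to 14938) and KRT18 (3793 to 8755). EPCAM had at most 39.15 and CDH1 at most 19.28 in any library. The 3 leukocyte markers summed to at most 9.56 normalized counts in any library.

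For the 5 genes whose group means spanned at least 1 log2 unit, the 3 genes of the most similar profile were sought among 9647 genes with a mean of at least 3 log2 CPM. Likeness was the root mean square difference of the 6 centred group means, in log2 units, and describes these 6 points only. Nearest to NPAS2 were LPXN (0.26), MMP9 (0.29) and KYNU (0.29). Nearest to PER1 were IRF2BP1 (0.049), PPFIA3 (0.049) and ZNF865 (0.071), nearest to TEF BAIAP2-DT (0.050), ZNF740 (0.062) and TMEM160 (0.067), and nearest to DBP ITM2C (0.096), CNIH2 (0.10) and IGSF9 (0.11). CLOCK was nearest to a transcript without a gene name, ENSG00000237356 (0.064), to INO80D (0.096) and to MIR23AHG (0.098). The profile of NPAS2 thus had no gene as close to it as those of the other 4 had. This distance was not scaled to the span of the gene, which was widest for NPAS2 (3.01 log2 units).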

How the data were processed

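RNA was measured in 24 libraries of T/C-28a2 cells, 4 in each of 6 groups taken from the sample labels. The authors deposited raw counts of poly(A) RNA-seq reads per Ensembl gene, with no normalization. Submitters' processing notes name FastQC 0.11.9, HISAT2 2.2.1, HTSeq 2.0.2, DESeq2 1.38.3 and GRCh38; the strand setting is not given in the sources used here. Symbols matched 62625 of 62703 identifiers and 78 had none. Positions, exons and GC content come from GENCODE 29 (GRCh38, 58279 identifiers), promoters from RefSeq.

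Counts were fitted with edgeR 4.0.16 in R 4.3.3 (limma 3.58.1): filterByExpr with a minimum count of 10 and a minimum total of 15, TMM factors, 6 group means, quasi-likelihood tests of 7 pairwise contrasts and 2 interactions, and Benjamini-Hochberg adjustment over 16600 genes per test, calls being made under 0.05. Each standard error was obtained as the absolute log2 fold change over the square root of the F statistic. Log2 CPM used a prior count of 2. The procedure was tested on simulated counts. These were drawn without the GC differences between libraries described above, so that test does not cover their effect on the calls. The study's methods call the 4 libraries of a group biological replicates, and the labels give only their numbers.

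Alternatives were DESeq2 1.42.0, RLE and upper-quartile factors, no filter, at least 10 counts in every library, only the groups compared, the replicate number as a block, each library left out, and, chosen after seeing the data, offsets for GC content and length (natural splines, df 5) and thinning to the smallest total. Named were all 10 clock genes, the 3 largest called changes per pairwise comparison among the other clock genes, and the 3 nearest profiles for genes spanning 1 log2 unit. The members and all lists were chosen with earlier results of these data known.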

Additional observations from a re-analysis of the deposited data

Results flagged for a closer look

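In 4 of 60 combinations of a clock gene and a group, 1 library lay far from the other 3 by Dixon's test, which chance does in about 1 of 20. BMAL1 had 381 normalized counts in WT Sor replicate 3 against 358 to 360 in the others, and 409 in WNK2- Sor replicate 1 against 322 to 330. PER2 had 21 normalized counts in WT Ctr replicate 2 against 70 to 74. CRY1 had 1290 in WNK2- Ctr replicate 3 against 1174 to 1186.

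The sorbitol response differed between backgrounds for 4 genes by the edgeR interaction test. For NPAS2 it was 0.63 larger on the log2 scale in WNK2- than in WT cells and 2.18 larger in the transfected than in the WT libraries. With transfection the interaction was -1.48 for PER1, -1.72 for DBP and -1.25 for TEF. With GC and length offsets that of PER1 was -0.70. The libraries of WT Sor, which enter all 5 values, and those labelled WNK2 trans Ctr, which enter the 4 with transfection, held fewer WNK2 reads (266 to 314 and 163 to 290) than WT Ctr (1217 to 2568).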

How the results depend on the processing

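Of 2970 recomputed values of single clock genes under 33 settings, 2880 kept their side of the threshold, 50 of them with a change of sign where neither value was called, 39 lost and 50 gained a call, and 1 reversed: CRY1 in WNK2 trans Sor against WNK2 trans Ctr, at -0.17 with GC and length offsets. Clock genes called went from 1 to 2 in the interaction with genotype under no filter, at least 10 counts in every library, the replicate block, only the groups compared and DESeq2, from 1 to 2 in WNK2 trans Ctr against WT Ctr under the replicate block and DESeq2, and from 1 to 2 for sorbitol in WNK2- cells with only the groups compared; the added gene was PER1 in each case. The replicate block also ended the call of BMAL1 in WNK2 trans Sor against WT Sor (adjusted p = 0.0667) and changed no other call. Of 28 same-numbered pairs 13 had deviations correlated above 0.1 (r from -0.778 to 0.649). Pairs of different numbers were not compared, so whether the replicate numbers pair the samples was not shown. With only the groups compared, 4824 of all genes were called for sorbitol in WNK2- cells (2473 as reported) and 747 in WNK2 trans Ctr against WT Ctr (2082). With GC and length offsets 6084 were called for sorbitol in WT cells (4008), 4353 in WNK2- cells and 2307 in the interaction with genotype (1436). With each library left out in turn there were 1 to 3 clock genes in WNK2 trans Ctr against WT Ctr, 2 to 4 for sorbitol in WT cells, 1 to 2 in the interaction with genotype, and there 849 to 1908 of all genes. The cause was not tested. PER2 had the fewest reads, 18 to 117 a library, and after thinning to the smallest total it was still not called in any test.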
